A study of Mus musculus with 6 samples.

Results

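The interferon-inducible GTPases described here are 10 genes, chosen by symbol and found once each among the 23424 genes of every count file. Of these, 5 encode guanylate-binding proteins (GBPs; Gbp2, Gbp3, Gbp5, Gbp7 and Gbp9) and 5 encode immunity-related GTPases (IRGs; Irgm1, Irgm2, Igtp, Iigp1 and Tgtp1). They were measured by bulk poly(A) RNA-seq in tumor-associated macrophages (TAMs) sorted into F4/80high and F4/80low subsets, with 3 libraries of each. Melanomas were grown by injecting YUMM1.7, an established line of mouse melanoma cells, into the dermis of C57Bl/6J mice. All mice were WT females, 8 weeks old at inoculation and left untreated, and the tumors were taken at day 21. Live CD45+ CD11b+ F4/80+ cells were sorted by F4/80 level from pooled tumors in 3 independent experiments, with a lineage-negative step by the study's methods, so each replicate number names a pair of libraries, 1 of each subset, from the same experiment. The study drew replicates 1 and 2 as batch 1 and replicate 3 as batch 2.

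GBPs and IRGs are GTPases that cells make in large amounts after interferon-gamma and, for many of them, after type I interferons. They gather on vacuoles that hold bacteria or parasites, where they break the vacuole membrane, mark it for ubiquitin and autophagy proteins or expose the microbe to inflammasome sensors. In macrophages their transcripts are commonly read as a sign of recent interferon signalling. By the GENCODE M21 annotation of GRCm38, Gbp5, Gbp7, Gbp3 and Gbp2 lie in this order on chromosome 3 between bases 142493978 and 142638008, and Gbp9 lies on chromosome 5 between 105077630 and 105139539. On chromosome 11, Irgm1 (48861968 to 48871683) and Tgtp1 (48985327 to 48994172) lie in one cluster and Igtp (58199556 to 58207591) and Irgm2 (58199618 to 58222782) in another, and Iigp1 lies on chromosome 18.

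Macrophage markers and the gene of F4/80 were read beside the sort labels. All 9 macrophage markers listed were detected. Their summed level was 9147, 25621 and 4847 CPM (read counts scaled to library size) in F4/80high replicates 1, 2 and 3. F4/80low TAMs gave 11205, 11916 and 5254, so the sum was higher in F4/80high TAMs in pair 2 alone. Adgre1, which encodes F4/80, was higher in F4/80high TAMs within each pair: F4/80high TAMs gave 273, 539 and 360 CPM for replicates 1, 2 and 3, while F4/80low TAMs gave 243, 327 and 183. The subsets overlapped for Adgre1, as F4/80low replicate 2 lay above F4/80high replicate 1. It was not called by the edgeR test with batch used below (adjusted p = 0.664). Libraries held 16045281 to 43604373 counts. The batch 2 libraries stood apart, with 16.1% and 17.1% of their counts in 3 features (Gm15564, Gm23935 and Lars2) that held 0.378% to 0.609% of each batch 1 library. TMM factors, which scale libraries by the bulk of their genes, were 0.601 and 0.646 there against 1.21 to 1.34. Results are therefore given within pairs and batches as well as over all libraries.

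The promoters are shown first, for 8 of the 10 genes, with the letters that interferon-activated factors are known to bind. RefSeq windows on GRCm38.p6, from 250 bases before to 50 bases after the annotated start, were matched for these 8. Promoters of Gbp9 and Iigp1 were not searched, so nothing is said of their letters. A pair of letter patterns was searched on both strands. The core of the interferon-stimulated response element (ISRE) was taken as GAAA, any 2 bases and GAAA, and the gamma-activated site (GAS) as TTC, any 3 bases and GAA. The ISRE letters were present in 8 of 8 matched genes and in 3.44% of 32851 promoter windows. The GAS letters were present in 5 of 8 matched genes, Gbp5, Gbp7, Irgm2, Igtp and Tgtp1, and in 8.3% of all windows. A match shows the letters only and not that a factor was bound.

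The 3 IRG genes Irgm2, Igtp and Tgtp1 on chromosome 11 carried both patterns in the same order, GAS and then ISRE 2 bases later, within a stretch that is nearly the same in each. Matched letters are in capitals and the strand is that of the gene. The stretches lie at chr11:58214892-58214932 (+) for Irgm2, chr11:58199501-58199541 (+) for Igtp and chr11:48992304-48992344 (-) for Tgtp1, between 98 and 15 bases before the start.
Irgm2: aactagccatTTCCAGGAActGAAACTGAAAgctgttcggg
Igtp: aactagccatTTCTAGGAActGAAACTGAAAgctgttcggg
Tgtp1: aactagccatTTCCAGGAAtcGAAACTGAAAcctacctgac
This arrangement was found in 5 of all 32851 windows. The other windows that hold it belong to Tgtp2 and Gm12185, which are also IRG genes of chromosome 11.

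The other matched genes differed in what lay around the ISRE letters. Irgm1 and Gbp3 each held a pair of overlapping ISRE matches and no GAS match, Gbp2 held 1 ISRE match and no GAS match, and Gbp7 held 2 GAS matches upstream of its ISRE match. Gbp5 held a GAS match on each side of its ISRE match. In the GBP genes the ISRE letters read on the opposite strand, as TTTC, any 2 bases and TTTC. The stretches shown lie at chr3:142620594-142620623 (+) for Gbp2, chr3:142559989-142560024 (+) for Gbp3, chr3:142530220-142530302 (+) for Gbp7 and chr11:48871425-48871460 (-) for Irgm1.
Gbp2: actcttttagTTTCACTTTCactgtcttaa
Gbp3: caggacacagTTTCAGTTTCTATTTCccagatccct
Gbp7: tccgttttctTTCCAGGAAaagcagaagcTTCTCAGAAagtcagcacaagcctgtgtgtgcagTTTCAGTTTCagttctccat
Irgm1: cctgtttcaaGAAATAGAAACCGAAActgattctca
Gbp3 has a second RefSeq window that held neither pattern.

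**Figure D1:**
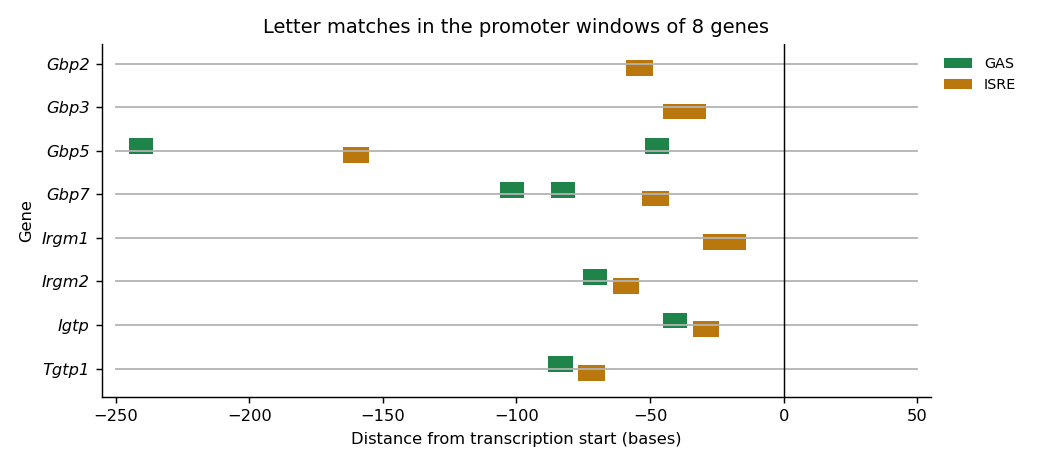
Positions of GAS (green) and ISRE (brown) letter matches in the promoter windows of 8 genes, in bases from the RefSeq start at 0. Irgm2, Igtp and Tgtp1 share the order GAS then ISRE, and each of the 8 genes holds an ISRE match before its start.

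The levels of the 10 genes were compared per kilobase of the deposited gene length (RPKM). Over the 4 libraries of batch 1, Igtp (46.5 ± 15.3 RPKM, SD, n = 4) and Gbp2 (42.5 ± 12.2) had the highest levels, and Igtp lay above Gbp2 in 3 of 6 libraries. Gbp7 (23.1 ± 3.91), Gbp3 (22.7 ± 5.27), Irgm1 (18.6 ± 5.23), Gbp9 (14.9 ± 5.38) and Iigp1 (12.3 ± 3.92) followed. Neighbours in this order were within 1 SD of each other, though Gbp3 exceeded Irgm1 and Irgm1 exceeded Gbp9 in 6 of 6 libraries. Within batch 1, Gbp7 exceeded Gbp3 in 2 of the 4 libraries and Gbp9 exceeded Iigp1 in 3. Irgm2 (6.21 ± 1.90), Gbp5 (3.14 ± 1.84) and Tgtp1 (1.93 ± 0.851) were lowest. In batch 2 the order was different: Gbp7 was first, at 116 RPKM in F4/80high and 170 in F4/80low TAMs, and Gbp3 second, at 77.1 and 128.

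**Figure D2:**
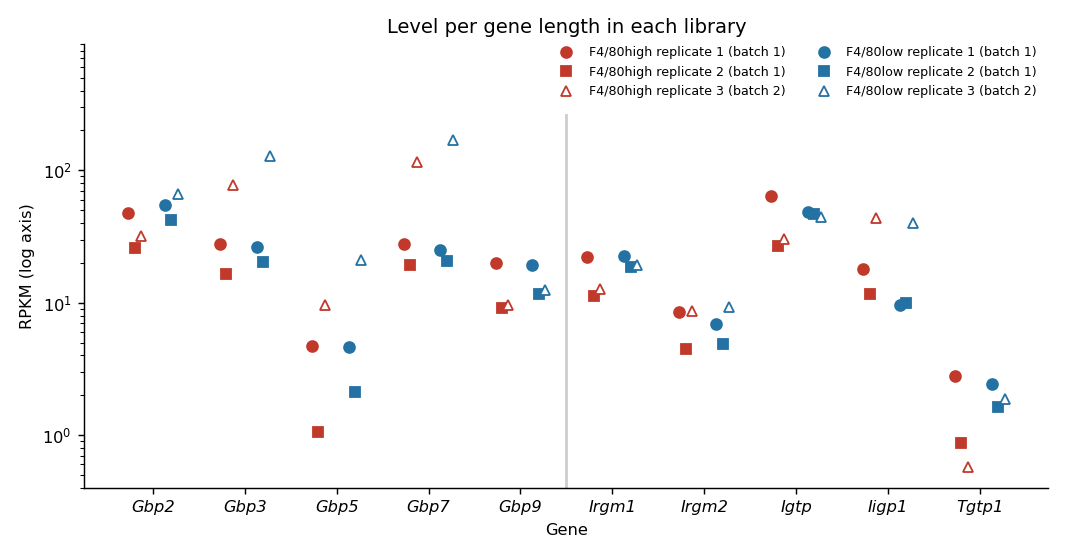
RPKM on a log axis of the 10 genes in each of 6 libraries, F4/80high in red and F4/80low in blue, with open triangles for batch 2. The 2 open triangles of Gbp3, Gbp5, Gbp7, Iigp1 and, by a small margin, Irgm2 lie above the 4 filled symbols, while the red and blue symbols of each gene overlap.

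The first comparison asked whether the GTPases differ between F4/80high and F4/80low TAMs. None of the 10 passed the test, and none had F4/80high and F4/80low libraries that did not overlap, beside 2.3% of all genes with F4/80high above and 2.9% with F4/80high below. The edgeR quasi-likelihood test with a term for batch called 0 of 10 (adjusted p under 0.05 and absolute log2 fold change above 1), beside 0% of 14645 protein-coding genes tested. At an unadjusted p under 0.05 it gave 0 of 10, beside 7.6% of all genes. With DESeq2 the count was also 0 of 10, beside 1.16% of the 12941 genes that tool gave an adjusted p. With the replicate number as a block, edgeR called 0 of 10, beside 0.519%, and DESeq2 0 of 10, beside 2.75%. Gbp2 and Gbp5, both lower in F4/80high TAMs, had an unadjusted p under 0.05 with edgeR and the block, beside 9.91% of all genes and 5.95% in that direction (adjusted p = 0.352 for Gbp2 and 0.437 for Gbp5). Fold changes below are F4/80high over F4/80low on the log2 scale, from the fit with batch. Their median was -0.26, against 0.01 over all genes, with 8 genes lower and 2 higher in F4/80high TAMs. In bulk libraries, fewer cells that express a gene and less RNA per cell cannot be told apart.

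That median rested in part on single libraries. Without F4/80high replicate 1 it was -0.65, with 1 gene higher, and 6 of 10 genes (Gbp2, Gbp3, Gbp5, Irgm1, Igtp and Tgtp1) had an unadjusted p under 0.05, beside 13.8% of all genes and 7.98% in that direction. None of the 10 passed the adjusted test there, where the lowest adjusted p was 0.121 for Gbp5 and 0.396% of all genes were called. The median was -0.42 when F4/80low replicate 2 was left out and -0.14 when F4/80high replicate 2 was. Without F4/80high replicate 2, F4/80low replicate 1 or F4/80low replicate 2 in turn, 0 of 10 had an unadjusted p under 0.05. Beside these stood 1027 of 14502, 585 of 14379 and 1157 of 14450 genes. Leaving out replicate 3 of F4/80high TAMs gave -0.07 and of F4/80low TAMs -0.08. Either way batch 2 keeps a single library, which the batch term fits alone, so both medians rest on batch 1. Dropping F4/80high replicate 1 moved Gbp5 from -0.53 to -1.44, Tgtp1 from -0.61 to -1.41, Igtp from -0.23 to -0.71, Irgm1 from -0.40 to -0.75, Gbp9 from -0.18 to -0.59, Gbp3 from -0.29 to -0.59, Gbp2 from -0.61 to -0.97 and Iigp1 from 0.45 to 0.20. Dropping F4/80high replicate 2 brought Gbp5 to -0.21 and Igtp to -0.0052, and dropping replicate 3 of either subset brought Tgtp1 to -0.14 and Gbp3 to -0.07. Dropping F4/80low replicate 2 gave Gbp5 at -0.88 and Tgtp1 at -0.94.

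Among the GBPs, Gbp2, which is required in mice for full control of Toxoplasma, was measured at 120, 64.8 and 80.0 CPM in F4/80high replicates 1, 2 and 3 and at 137, 106 and 167 CPM in F4/80low. It was lower in F4/80high TAMs within each pair, although F4/80high replicate 1 lay above F4/80low replicate 2. The log2 fold change was -0.61 (SE 0.29, 95% interval -1.27 to 0.05, adjusted p = 0.685). Within batch 1 alone it was -0.39.

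Gbp5, which promotes inflammasome assembly, was measured at 31.4, 7.05 and 63.5 CPM in F4/80high and at 31.0, 14.1 and 139 CPM in F4/80low TAMs. The subsets were level in pair 1 and F4/80low was about as far above F4/80high in pair 2 as in pair 3, with log2 differences of 0.02, -0.99 and -1.13. The log2 fold change was -0.53 (SE 0.52, interval -1.70 to 0.64, adjusted p = 0.823), and the interval takes in a difference beyond the threshold of 1 in the negative direction.

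Gbp3 and Gbp7 are neighbours on chromosome 3, and Gbp7 has been tied to NADPH oxidase and autophagy in macrophages. Gbp3 was measured at 91.0, 53.9 and 252 CPM in F4/80high and at 85.7, 66.1 and 416 CPM in F4/80low TAMs. Gbp7 was measured at 156, 108 and 651 CPM in F4/80high and at 139, 115 and 955 CPM in F4/80low TAMs. Both followed the replicate number far more than the subset, with log2 fold changes of -0.29 (SE 0.28, adjusted p = 0.822) and -0.15 (SE 0.25, adjusted p = 0.919). Of the 75-base stretches of the Gbp7 transcripts, 11.43% also occur in other genes, 10.16% in the overlapping pseudogene Gm43802.

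Gbp9, of the chromosome 5 cluster, was measured at 103, 47.3 and 50.1 CPM in F4/80high and at 99.1, 59.7 and 65.0 CPM in F4/80low TAMs. Its log2 fold change was -0.18 (SE 0.33, adjusted p = 0.926). Gbp9 overlaps Gbp4 and Gbp8 on the same strand, so reads of these genes could be split between them.

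The IRGs fall into regulators, the Irgm proteins that guard the cell's own membranes, and effectors that load onto vacuoles. Of the regulators, Irgm1, needed for resistance to mycobacteria and for lysosome and autophagy function, was measured at 129, 65.5 and 73.6 CPM in F4/80high and at 131, 107 and 112 CPM in F4/80low TAMs. The F4/80low libraries were close together, and F4/80high replicate 1 lay among them while replicates 2 and 3 lay below. The log2 fold change was -0.40 (SE 0.28, interval -1.04 to 0.24, adjusted p = 0.745).

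Igtp, also called Irgm3, likewise had F4/80high replicates 2 and 3 below the F4/80low libraries, at 129, 54.2 and 61.0 CPM in F4/80high and at 98.0, 94.0 and 89.9 CPM in F4/80low TAMs. The SD was 41.6 CPM in F4/80high and 4.07 in F4/80low TAMs, and the log2 fold change was -0.23 (SE 0.32, adjusted p = 0.896). Irgm2 was measured at 31.1, 16.2 and 31.6 CPM in F4/80high and at 24.9, 17.7 and 33.9 CPM in F4/80low TAMs, with a log2 fold change of 0.07 (SE 0.31, adjusted p = 0.974). Igtp and Irgm2 overlap on the same strand and share 8.37% of the 75-base stretches of Igtp, so their values are not fully separate.

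Of the effectors, Iigp1 (Irga6), which coats and disrupts the Toxoplasma vacuole, was measured at 56.3, 36.6 and 137 CPM in F4/80high and at 29.9, 31.1 and 125 CPM in F4/80low TAMs. It was the 1 gene of the 10 that was higher in F4/80high TAMs within each pair, by 0.91, 0.23 and 0.13 on the log2 scale. Its log2 fold change was 0.45 (SE 0.25, interval -0.12 to 1.01, adjusted p = 0.699). None of its 75-base stretches occur in another gene.

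Tgtp1 (Irgb6) had the lowest counts, at 8.96, 2.82 and 1.84 CPM in F4/80high and 7.73, 5.26 and 6.05 CPM in F4/80low TAMs. The log2 fold change was -0.61 (SE 0.58, interval -1.92 to 0.70, adjusted p = 0.816). Of its 75-base stretches, 84.76% also occur in Tgtp2, and the counting rule is not given in the sources used here, so reads could be split between them. Tgtp1 and Tgtp2 summed to 32.7, 11.7 and 8.43 CPM in F4/80high and to 23.5, 21.1 and 20.5 CPM in F4/80low TAMs. F4/80high replicate 1 was highest and F4/80high replicates 2 and 3 lay below the F4/80low libraries, as for Igtp.

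**Figure D3:**
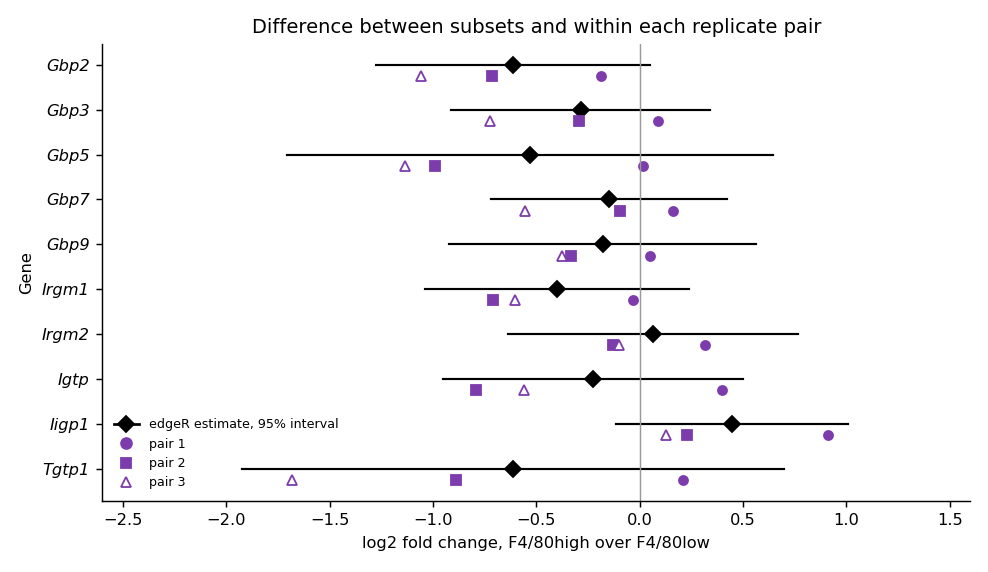
The log2 fold change of F4/80high over F4/80low for each gene, as the edgeR estimate with its 95% interval (diamonds and lines) and as the difference within each replicate pair (purple). All 10 intervals cross 0, and the circles of pair 1 lie to the right of the squares and triangles of pairs 2 and 3.

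The pairs differed in direction. In pair 1, 8 of the 10 genes were higher in F4/80high TAMs, while in pairs 2 and 3 it was 1 of 10, Iigp1 in both. The median difference of the 10 genes was 0.12, -0.52 and -0.58 on the log2 scale in pairs 1, 2 and 3. One direction in 3 of 3 pairs was seen for Iigp1 (higher, beside 17.7% of all genes) and for Gbp2 and Irgm1 (lower, beside 16% of all genes). With libraries scaled by size alone, Gbp2 and Iigp1 kept 1 direction and Irgm1 did not. Within batch 1, F4/80high replicate 2 was the lowest library for 9 of 10 genes and F4/80high replicate 1 the highest for 8 of 10, so that the 2 F4/80high libraries enclosed the 2 F4/80low libraries for most of the genes.

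Markers of other cells were read beside the pairs. The T and NK cell list was higher in F4/80high TAMs over all libraries in 8 of 8 genes tested, with a summed level of 1208, 356 and 209 CPM in F4/80high replicates 1, 2 and 3 and 425, 546 and 109 CPM in F4/80low, and 0 of its 9 genes were at 0 in all libraries. The study's methods describe a lineage-negative step in the sort, and its antibody panel held antibodies to T, NK and B cell proteins. Ifng, which encodes interferon-gamma and is made mainly by T and NK cells, was measured at 74.9, 19.9 and 2.81 CPM in F4/80high and at 19.8, 33.3 and 0.570 CPM in F4/80low TAMs (log2 fold change 1.11, SE 0.52, adjusted p = 0.683). Both were higher in F4/80high TAMs in pair 1 and lower in pair 2, as most of the GTPases were, and both were higher in pair 3, where 9 of the 10 GTPases were lower. Neutrophil markers were lower in F4/80high TAMs in 6 of 6 genes, with a summed level of 280 to 1239 CPM against 560 to 3001. Their median difference was -1.30, -1.42 and -0.93 in pairs 1, 2 and 3. With the block, edgeR called 5 of these 6, beside 0.519% of all genes. It called 0 of the T and NK cell, eosinophil, dendritic cell and fibroblast markers. Eosinophil markers were lower in 6 of 6 genes (88.3 to 175 CPM against 245 to 595), with pair medians of -1.19, -2.68 and -0.91. Dendritic cell markers were lower in 6 of 8 (85.6 to 293 CPM against 163 to 467), with pair medians of -0.38, -1.10 and -0.60. Fibroblast markers were lower in 5 of 5 (429 to 1524 CPM against 1009 to 1886), with pair medians of -0.30, -1.31 and -0.32. For these 4 lists the median was lower in F4/80high TAMs in every pair, pair 1 included, where 8 of the 10 GTPases were higher. The part of all these markers in the values of the GTPases was not tested.

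A ratio of a pair of genes within a library does not depend on how libraries are scaled. Of the 45 ratios among the 10 genes, that of Gbp2 to Iigp1 is shown. It was chosen after the values were seen, as its mean difference over the pairs was the largest relative to its SD. Per kilobase it was 2.65, 2.20 and 0.726 in the F4/80high libraries of replicates 1, 2 and 3, against 5.67, 4.23 and 1.65 in their F4/80low partners. The log2 difference, F4/80high minus F4/80low, was -1.10, -0.95 and -1.19 in the 3 pairs, a mean of -1.08 ± 0.12 (SD, n = 3 pairs), across batches in which the ratio itself differed. The ratio of Irgm1 to Iigp1 differed by a mean of -0.87 ± 0.12. That of Gbp9 to Irgm2 varied less between pairs, around a smaller mean of -0.25 ± 0.04. Since these were picked from all ratios, they are given as a description with no test.

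The batch divided the genes more than the subset did. Gbp3, Gbp5, Gbp7 and Iigp1 were higher in batch 2, by 2.14 (adjusted p = 0.000385), 2.20 (adjusted p = 0.00861), 2.61 (adjusted p = 6.99e-05) and 1.80 (adjusted p = 0.000548) on the log2 scale by edgeR, with subset in the fit. The other 6 lay between -0.79 (Tgtp1) and 0.55 (Irgm2), and none of them passed. The count of 4 of 10 stood beside 42.6% of all genes called in either direction and 20% higher in batch 2, and the median over all genes was -0.35. With libraries scaled by size alone that median was -1.37 and 8 of 10 genes were called, while the share of all genes called is not given here. Gbp3 (1.10), Gbp7 (1.58) and Iigp1 (0.77) remained higher, and Gbp5 (1.16, adjusted p = 0.107) was not called. Gbp2, Gbp9, Igtp, Irgm1 and Tgtp1 were called lower in batch 2. They lay between -0.90 (Gbp2) and -1.84 (Tgtp1), around the median of all genes. The ratio of Gbp2 to Gbp7, which is free of scaling, was 1.34 to 2.19 in the 4 batch 1 libraries and 0.274 and 0.390 in batch 2. Batch 2 holds 1 experiment, so batch and experiment cannot be told apart. The batch test counts the 2 libraries of that experiment as separate, so its p-values do not measure the spread between experiments.

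Over the 6 libraries, log2 CPM correlated among Gbp3, Gbp5, Gbp7 and Iigp1 at a median Pearson r of 0.934 over 6 pairs of genes (0.811 to 0.992), and among the other 6 genes at 0.784 over 15 pairs (0.187 to 0.952). Between these groups the median r was 0.079 over 24 pairs (-0.374 to 0.921). The 4 genes were grouped by the batch difference that the same libraries show, so this is a description of it. Irgm1 and Igtp were the closest of the other genes (r = 0.952) and lie in different clusters of chromosome 11.

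**Figure D4:**
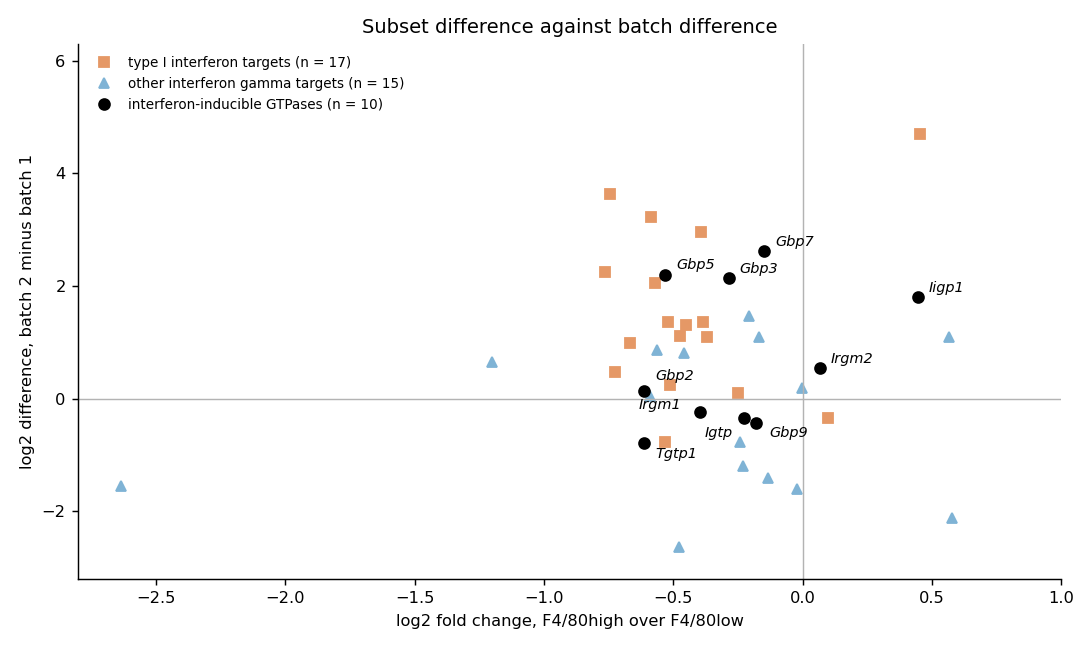
Subset difference (x axis) against batch difference (y axis), both log2 from the edgeR fit, for the 10 GTPases (black, named) and for type I interferon targets (orange squares) and other interferon-gamma targets (blue triangles). Gbp3, Gbp5, Gbp7 and Iigp1 lie at 1.80 to 2.61 on the batch axis, and the other 6 between -0.79 and 0.55.

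The other genes of the families were set beside the 10. Of 6 other GBP genes, 5 were tested, and all 5 had a positive fold change with a median of 0.33 and none at an unadjusted p under 0.05. Their median difference was 1.08, -0.20 and 0.08 in pairs 1, 2 and 3, and 0 of 5 kept 1 direction in 3 of 3 pairs. Of 12 other IRG genes, 11 were tested, with 4 higher, 7 lower and a median of -0.26. Mx1, an interferon-induced dynamin-like GTPase, had a log2 fold change of -0.56 (SE 0.37, adjusted p = 0.730), and was higher in batch 2 by 2.29. None of these family genes was called between the subsets by edgeR with batch, edgeR with the block or DESeq2 with batch. DESeq2 with the block called 1 of them, Gm4841 (adjusted p = 0.0178), beside 2.75% of all genes. Irgq, of the IRG list, was lower in F4/80high TAMs in 3 of 3 pairs. It was measured at 6.59, 6.12 and 4.54 CPM in F4/80high and at 8.71, 7.10 and 34.6 CPM in F4/80low TAMs, and these libraries did not overlap, as was so for 2.9% of all genes in that direction (log2 fold change -1.11, SE 0.53, adjusted p = 0.686).

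Split by chromosome, a division made after the values were seen, the IRG genes of chromosome 18 stood on one side. Iigp1, Gm4951, Gm4841 and F830016B08Rik, the 4 tested there, were each higher in F4/80high TAMs in 3 of 3 pairs, beside 17.7% of all genes, with a median log2 fold change of 0.95. F830016B08Rik was measured at 6.54, 3.69 and 4.11 CPM in F4/80high and at 1.73, 1.97 and 2.05 CPM in F4/80low TAMs, and these libraries did not overlap, as was so for 2.3% of all genes in that direction. Its log2 fold change was 1.32 (SE 0.52, adjusted p = 0.621). Gm4951 was measured at 11.8, 9.13 and 38.7 CPM in F4/80high and at 6.48, 8.24 and 23.5 CPM in F4/80low TAMs (log2 fold change 0.58, SE 0.28, adjusted p = 0.686). Gm4841 rested on few counts, at 1.03, 1.26 and 10.9 CPM in F4/80high and at 0.527, 0.123 and 0.114 CPM in F4/80low TAMs (log2 fold change 2.91, SE 1.07, adjusted p = 0.581), and also did not overlap. It was called by DESeq2 with the block alone (adjusted p = 0.0178), and not by edgeR with the block (0.351) or DESeq2 with batch (0.101).

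On chromosome 11, 2 of 10 IRG genes tested were higher, with a median of -0.29. The 5 GBP genes tested on chromosome 3 had a median of -0.29 with 1 higher, and the 5 on chromosome 5 a median of 0.23 with 4 higher. In pairs 1, 2 and 3 the medians were 0.09, -0.29 and -0.72 on chromosome 3 and 0.61, -0.33 and 0.08 on chromosome 5.

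**Figure D5:**
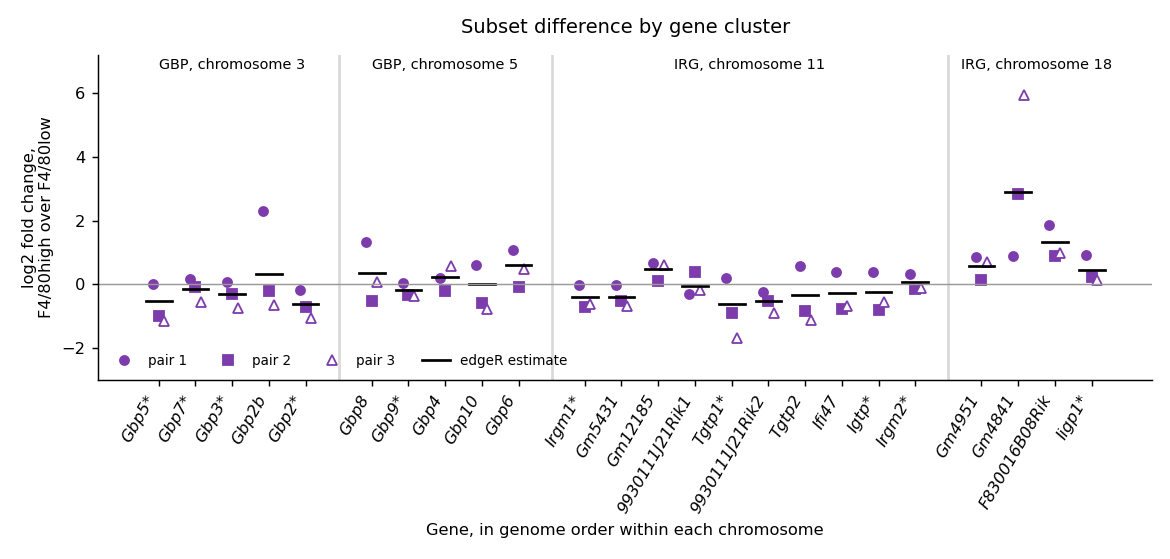
The log2 fold change of F4/80high over F4/80low within each pair (purple) and as the edgeR estimate (black bar) for the tested GBP and IRG genes, in genome order within 4 clusters, with asterisks on the 10 genes described here. All pair symbols of the 4 chromosome 18 genes lie above 0, while most symbols of pairs 2 and 3 on chromosome 11 lie below it.

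The pathway around the GTPases was described by lists. None of their genes was called between the subsets by edgeR with batch, where 0% of all genes were. In the interferon-gamma receptor and signalling list, 8 of 11 genes were lower in F4/80high TAMs, with a median log2 fold change of -0.11. Jak2, a kinase of the interferon-gamma receptor, was measured at 99.6, 65.2 and 210 CPM in F4/80high and at 234, 106 and 453 CPM in F4/80low TAMs, lower within each pair (log2 fold change -1.07, SE 0.32, adjusted p = 0.504). Irf1, a factor that binds ISRE letters, had -0.43 (SE 0.35, adjusted p = 0.790). Irf8, a macrophage interferon regulatory factor, was higher within each pair, with 0.29 (SE 0.25, adjusted p = 0.792).

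Of 15 other interferon-gamma targets, 13 were lower, with a median of -0.23. Acod1 (Irg1 in the files), which makes itaconate, was measured at 158, 60.3 and 189 CPM in F4/80high and at 351, 187 and 378 CPM in F4/80low TAMs, with a log2 fold change of -1.20 (SE 0.38, adjusted p = 0.524). With the block it was called by edgeR (adjusted p = 0.0434), the 1 gene of these lists that was, beside 0.519% of all genes. With genes of all biotypes in the same fit 0 of 95 list genes were called. DESeq2 with the block called Acod1 (adjusted p = 5.43e-06), Jak2 (adjusted p = 0.000752) and Gm4841. This was 3 of 91 family and pathway genes, beside 2.75% of all genes. Of 17 type I interferon targets, 15 were lower, with a median of -0.51, and 9 were lower in 3 of 3 pairs. The smallest p values among them were those of Rsad2 (viperin, log2 fold change -0.77, SE 0.29, adjusted p = 0.598) and Cmpk2 (-0.73, SE 0.30, adjusted p = 0.630). By the batch term at an adjusted p under 0.05, 11 of the 17 passed as higher in batch 2 and 0 as lower, against 3 and 5 of the 15 interferon-gamma targets, 4 and 0 of the 10 GTPases, and 20% and 22.7% of all genes. These counts, too, treat libraries of the same experiment as separate.

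The partners through which the GTPases act gave no call either. Of 10 genes for the ubiquitin-like conjugation of LC3 and GABARAP proteins, which places IRGs and GBPs on vacuoles, 6 were lower, with a median of -0.17. Of 8 inflammasome genes, all 8 were lower, with a median of -0.40. Among them Casp4, the sensor of cytosolic lipopolysaccharide that GBPs aid, had a log2 fold change of -0.57 (SE 0.31, adjusted p = 0.696) and was higher in batch 2 by 2.79, and Gsdmd, which forms the pores of pyroptosis, had -0.52 (SE 0.27, adjusted p = 0.695).

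Among 9937 genes outside the lists, those whose log2 CPM most resembled the mean standardised level of the 10 over 6 libraries were Fancm (r = 0.979), BC147527 (r = 0.975), Ddx24 (r = 0.975), Plekha5 (r = 0.972) and Gm4955 (r = 0.969). The libraries share depth and batch, and r is a description over 6 points.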

How the data were processed

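The 6 libraries (3 of each TAM subset) were measured by RNA-seq of poly(A) RNA. The authors deposited, for each library, raw read counts per gene with gene length and biotype and no normalization. The aligner, genome build, counting rule and strand are not given in the sources used here. IDs were found in GENCODE M21 (GRCm38) for 99.4% of genes. Genes that are protein-coding in M21 with at least 10 counts summed over 6 libraries were kept (14645 of 15813). The fit was edgeR 4.0.16 in R 4.3.3 with TMM, batch and subset as terms and Benjamini-Hochberg adjustment over all genes tested, with DESeq2 1.42.0 as an alternative. Steps were tested on simulated data. A call needed both an adjusted p under 0.05 and a log2 fold change beyond 1 in size. CPM are counts scaled to the TMM-adjusted library size, taken as the total over the genes tested. An earlier run took the total over all features of the file, and this was replaced after values had been seen and is kept as an alternative. RPKM divide CPM by the deposited length, and differences within pairs use log2 CPM with a prior count of 2. The 95% intervals are the SE times a t quantile. Depth limits genes with few counts: 3 counts were 0.0688 to 0.187 CPM of the file total.

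The labels' replicate numbers were taken as pairs because the study lists both subsets under each experiment. After subset means were taken out, the libraries of a pair correlated at 0.745 (replicate 1), 0.729 (replicate 2) and 0.907 (replicate 3) over 10072 genes. Libraries of unlike replicate number were not compared, and 42.6% of all genes differed between batches. These values therefore do not test the pairing. With the batch term, the p-values rest on the spread left between libraries once subset and batch are fitted. With the block, they rest on how far the subset difference varies between experiments. Both also borrow from the spread of other genes. The 10 genes and the lists were chosen with earlier results of these data known. Named genes are the 10, Adgre1, up to 3 genes in each direction with the smallest p of each list, and the 5 genes most like the 10. A gene that this rule names is not reported here. The split by chromosome and the ratios were chosen after their values were seen. Promoters of Gbp9 and Iigp1 were not used here. Genes not found by symbol (Gm17757, Ifna1, Ifna2, Ifna4, Ifne, Ifi44l, Tyr and Dct) were not analysed here.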

Additional observations from a re-analysis of the deposited data

How the results depend on the processing

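Over 22 alternatives, 5 of them chosen after the data were seen, 0 of 10 GTPases were called between the subsets. In most of them no gene of any kind was called, so 0 of 10 was fixed in advance there. DESeq2 called 150 genes with batch and 356 with the block. With edgeR it was 76 with the block, 27 with all biotypes and the block, and 57 without F4/80high replicate 1. The median log2 fold change of the 10 stayed negative, between -0.65 (without F4/80high replicate 1) and -0.07 (batch 1 only). The sign turned for 3 genes with small differences: Gbp7 was 0.053 in batch 1 only, and over the 6 fits that leave out 1 library it lay between -0.37 and 0.05, Gbp9 between -0.59 and 0.03 and Irgm2 between -0.27 and 0.25. Leaving out replicate 3 gave Gbp7 at 0.052 (F4/80high) and 0.051 (F4/80low). These fits keep a single library of batch 2, which the batch term fits alone, so they repeat the fit of batch 1 only. Gbp9 was 0.032 when F4/80high replicate 2 was dropped and 0.024 when F4/80low replicate 1 was, and Irgm2 was -0.27 when F4/80high replicate 1 was dropped and -0.09 when F4/80low replicate 2 was. The cause was not tested.

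With the replicate block, which pairs the libraries of 1 experiment, 0 of 10 GTPases were called, and 1 of 91 other family and pathway genes was, with or without the fold threshold, against 0 without the block. With all biotypes and the replicate block the count was 0 of 95. DESeq2 with the replicate block called 3 of 91 (Acod1, Jak2 and Gm4841), beside 2.75% of all genes (356). With edgeR and the block, 0.519% of all genes (76) were called. The block changed no call of a GTPase.

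The batch difference depended on scaling: 8 GTPases were called with library size alone and 7 with the total of the file in its place and no TMM, against 4 with TMM under either total. Without TMM the median of all genes was -1.37 with library size alone and -1.49 with the total of the file. The share of all genes called is not given for these scalings. Iigp1 was among the 8 (adjusted p = 0.0386) and not among the 7 (adjusted p = 0.0712). Genes with few counts, such as Tgtp1 and Gm4841, have the wider intervals.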
